A study of Mus musculus with 8 samples.

Results

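The step from metestrus to diestrus was examined in the uterus of cycling mice, with the 2 metestrus libraries set against the 2 diestrus libraries, 4 of the 8 libraries of a study that also sampled proestrus and estrus. All female mice were of ICR, an outbred laboratory stock, and 6 to 8 weeks old at every stage. The stage of each mouse was read from stained cells of a vaginal smear, and no treatment or allele is named in the labels. The labels do not say that the libraries of a stage came from separate animals, so p-values measure the spread between libraries, which may be technical. Of 52308 genes in the deposited table of read counts, 18114 had enough counts to be tested. In 8878 of these the stages did not overlap, since both diestrus libraries lay above, or both below, both metestrus libraries. In another 3519 genes 1 diestrus library lay above and the other below both metestrus libraries, and these genes with opposed diestrus libraries are described apart. In the remaining 5717 genes at least 1 diestrus library lay within the metestrus range.

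Metestrus is the short stage after ovulation, and diestrus is the longer stage that follows it, in which the corpora lutea secrete progesterone before the next rise of estrogen. Estrogen drives division of the luminal epithelium and the secretion of fluid and defence proteins. Progesterone acts through its receptor in epithelium and stroma, opposes epithelial division, and in mice induces the ligand Indian hedgehog in the epithelium, which signals to the stroma.

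Total counts lay between 17863546 and 21896786 in these 4 libraries, and diestrus library 2 was the shallowest. Levels are given as CPM, counts per 1000000 counts of the library after TMM scaling for composition. The metestrus libraries stood close to each other and the diestrus libraries did not. Over the tested genes, the metestrus libraries differed by a root mean square of 0.519 log2 CPM, and the diestrus libraries by 0.904. Diestrus library 2 lay 0.713 and 0.708 from the metestrus libraries, nearer to them than to its own replicate, whereas diestrus library 1 lay 0.953 and 0.986 from metestrus. Both diestrus libraries lay 1.11 to 1.35 from the proestrus and estrus libraries. The tissue label was met by uterine genes in every library: Hoxa10 had 179.9 and 177 CPM in metestrus and 324 and 358 CPM in diestrus, and Esr1, the main estrogen receptor of the uterus, had 447 and 464 CPM in metestrus and 459.8 and 335 CPM in diestrus. Genes of the ovary and oviduct, 8 of 16 tested and 3 at 0 in all 4 libraries, summed to 126 and 146 CPM in metestrus and to 138 and 104 CPM in diestrus.

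**Figure D1:**
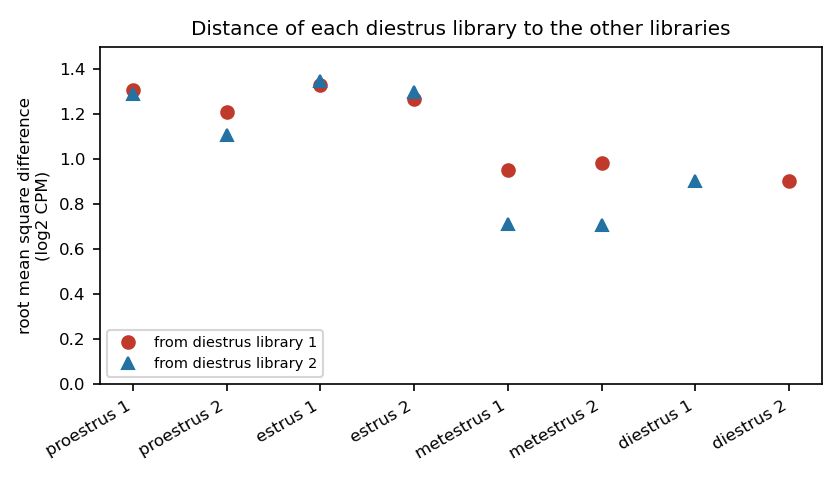
Distance of diestrus library 1 (red circles) and of diestrus library 2 (blue triangles) to the other 7 libraries, as the root mean square difference in log2 CPM over 18114 tested genes. Library 2 stood nearest to metestrus, at 0.708 and 0.713, and library 1 stood 0.904 from library 2.

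The genes that rose into diestrus, 51 in number or 0.282% of those tested, included receptors and enzymes of hormone and prostaglandin signalling and components of the matrix, and 41 genes (0.226%) fell, among them the progesterone receptor, neuregulins and genes of the luminal epithelium. These 92 genes were 0.508% of those tested. The test was edgeR's quasi-likelihood test with Benjamini-Hochberg adjustment over all tested genes at 0.05, on 2 libraries a stage, with the spread estimated over all 8 libraries. In bulk tissue, fewer cells of a type and less RNA per cell cannot be told apart. Fold changes of the genes that rose ran from 1.57 to 42.3 (median 3.13) and of those that fell from 1.74 to 51.2 (median 3.45). All 92 genes had non-overlapping stages, which 24.2% (both above) and 24.8% (both below) of the tested genes also had.

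How many genes passed depended on single libraries. Without diestrus library 1, 154 genes were higher and 113 lower, among them 45 and 35 of those above. Without diestrus library 2, 1052 were higher and 933 lower, with all 51 and 41 among them. In these fits the remaining diestrus library has no replicate and is assumed to vary like the other stages. Counts of list members in such fits, given below, are to be set beside these totals over all tested genes. A larger count of a list can follow from the larger total alone. Without metestrus library 1 or 2, edgeR called no gene. At an unadjusted p under 0.05 there were then 951 higher and 1063 lower genes without library 1, and 841 and 721 without library 2. Without either proestrus library 1 gene was higher and 2 lower, and without either estrus library 3 and 3. With the 4 metestrus and diestrus libraries alone edgeR called none (1145 higher and 1043 lower at an unadjusted p under 0.05). DESeq2, on 14251 genes to which it gave an adjusted p, called 502 higher and 490 lower, and limma-voom called 51 and 34. With all 8 libraries, edgeR had 1717 higher and 1601 lower of the 18114 tested genes at an unadjusted p under 0.05. DESeq2 had 1506 and 1698 at that p, and limma-voom 1549 and 1828. Counts of list members at an unadjusted p, given below, are to be set beside these totals.

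**Figure D2:**
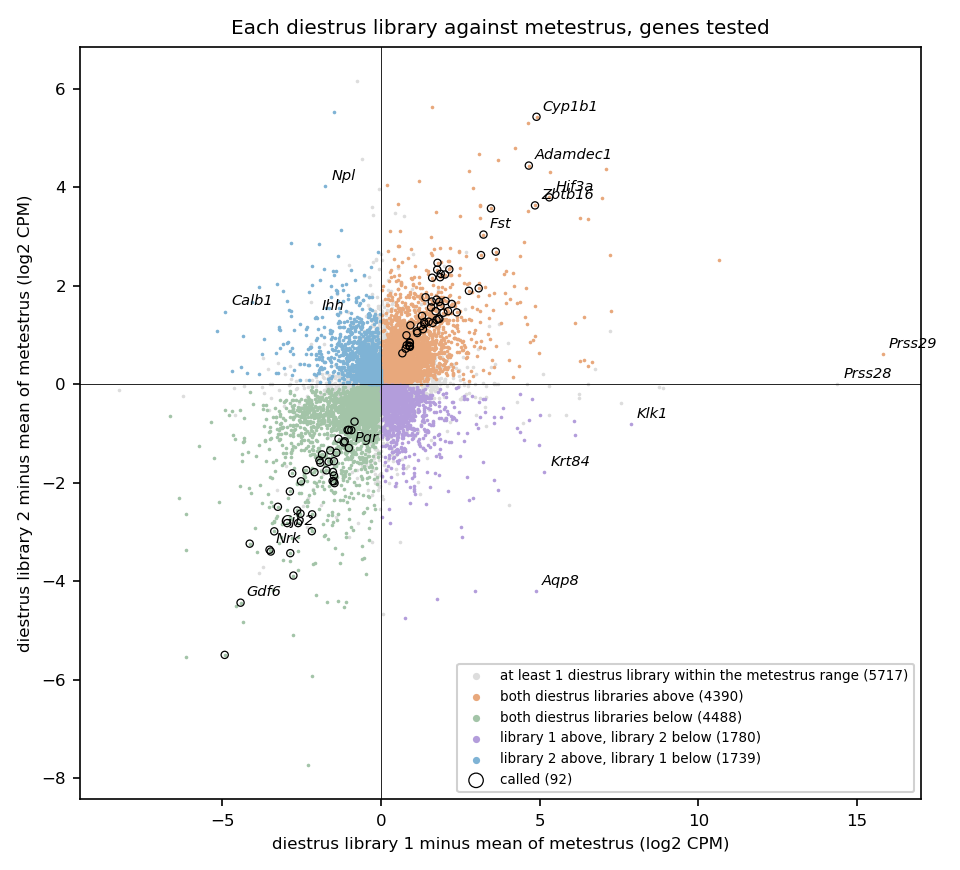
Difference of diestrus library 1 (horizontal axis) and of diestrus library 2 (vertical axis) from the mean of the metestrus libraries, in log2 CPM, for 18114 tested genes coloured by the order of the 4 libraries. Circles mark the 92 genes that passed the test, and they lie near the diagonal, whereas Prss29, Prss28 and Klk1 lie far to the right on library 1 alone.

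Of 21 tested genes of a list of progesterone-responsive genes, 3 rose and none fell. In 13 of the 21 both diestrus libraries lay above both metestrus libraries and in 1 both lay below. The shares over all tested genes were 24.2% above and 24.8% below. The median log2 change of the list was 1.54, against 0.0245 over all tested genes. Zbtb16 (chromosome 9, 48654297 to 48836222, minus strand, GRCm38), a zinc finger repressor induced by steroids, had 4.96 and 4.06 CPM in metestrus and 132 and 56.9 CPM in diestrus. Both diestrus libraries lay far above metestrus and library 1 was the higher of them (log2 change 4.39 ± 0.44 (SE), edgeR adjusted p = 0.0272). Fst, the secreted antagonist follistatin that binds activins, had 6.61 and 11.8 CPM in metestrus and 83.4 and 73.5 CPM in diestrus, with the diestrus libraries close to each other (log2 change 3.09 ± 0.38 (SE), edgeR adjusted p = 0.0361). Il13ra2, a decoy receptor for interleukin 13, had 1.38 and 2.14 CPM in metestrus and 19.9 and 21.6 CPM in diestrus. Its diestrus values also lay close together (log2 change 3.55 ± 0.38 (SE), edgeR adjusted p = 0.0304). Hif3a, a hypoxia-inducible factor of no list here, had 0.982 and 1.37 CPM in metestrus and 49.4 and 17.4 CPM in diestrus and was at 1.34 to 1.75 CPM in the 4 proestrus and estrus libraries (log2 change 4.82 ± 0.56 (SE), edgeR adjusted p = 0.0336). Without diestrus library 1, 7 of the list rose, and without library 2, 9 rose and 2 fell.

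Other members of that list differed between the diestrus libraries. Cyp26a1, which degrades retinoic acid, had 0.491 and 0.770 CPM in metestrus and 106 and 4.29 CPM in diestrus, so that library 1 lay far above library 2. Ihh, Acod1, Gata2 and Sox17 instead lay above metestrus in library 2 and below it in library 1, and are taken up with the opposed genes. Hand2, a stromal transcription factor induced by progesterone and named after its values were seen, had 38.97 and 35.2 CPM in metestrus and 52.2 and 79.8 CPM in diestrus and did not pass the test (edgeR adjusted p = 0.181).

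Of 9 steroid receptors and membrane progesterone or estrogen receptors, Pgr alone passed. The progesterone receptor gene Pgr (chromosome 9, 8899833 to 8968611, plus strand) had 480.5 and 478 CPM in metestrus and 237 and 196 CPM in diestrus. It fell by 1.15 ± 0.14 (SE) on the log2 scale (edgeR adjusted p = 0.0361) and remained above the 69.0 and 60.7 CPM of the estrus libraries. Esr1 did not pass and its stages overlapped. Nr3c1, the glucocorticoid receptor, had 62.4 and 61.1 CPM in metestrus and 72.1 and 55.9 CPM in diestrus, with library 1 above and library 2 below metestrus. Esr2, estrogen receptor beta, stayed under 1 CPM in all 4 libraries. Without diestrus library 2, 2 receptors fell instead of 1.

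Several enzymes that act on steroids and other small molecules rose, Cyp1b1 the most of those described here. Cyp1b1 (chromosome 17, 79701537 to 79715061, minus strand), a cytochrome P450 that hydroxylates estradiol, had 0.580 and 0.513 CPM in metestrus and 19.03 and 27.7 CPM in diestrus. The diestrus libraries lay above all 6 other libraries, the highest of which held 2.79 CPM (log2 change 5.40 ± 0.70 (SE), edgeR adjusted p = 0.0398). Sult1a1, a phenol sulfotransferase, had 2.46 and 3.68 CPM in metestrus and 27.4 and 19.1 CPM in diestrus (log2 change 2.92 ± 0.28 (SE), edgeR adjusted p = 0.0266). Maob, which oxidises monoamines, had 36.02 and 46.6 CPM in metestrus and 139.8 and 207 CPM in diestrus (log2 change 2.07 ± 0.23 (SE), edgeR adjusted p = 0.0321). Cyp27a1, a mitochondrial sterol hydroxylase, Cyp2d22 and the sorbitol dehydrogenase gene Sord rose with log2 changes of 1.60, 1.60 and 1.11. In the list of steroid metabolism Cyp1b1 was the one member of 12 tested that passed, and 4 passed without diestrus library 2. Hsd11b1, which regenerates active glucocorticoid, was a member with 2.90 and 2.69 CPM in metestrus and 223 and 3.93 CPM in diestrus, and Srd5a1, a steroid 5-alpha reductase, had 6.79 and 5.39 CPM in metestrus and 57.3 and 7.46 CPM in diestrus. Both diestrus libraries of these genes lay above metestrus, library 2 by little, and neither gene passed the test (edgeR adjusted p = 0.191 and 0.214).

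The receptors for prostaglandin E2 that rose were 3 of 22 tested genes of prostaglandin synthesis and reception, and no member of the list fell. In 10 of the 22 both diestrus libraries lay above metestrus and in 3 below, against 24.2% and 24.8% of all tested genes. The median log2 change was 0.482. Ptger2, a receptor coupled to the rise of cyclic AMP, had 1.70 and 1.63 CPM in metestrus and 7.69 and 8.77 CPM in diestrus (log2 change 2.31 ± 0.23 (SE), edgeR adjusted p = 0.0272). Ptger3, which is coupled mainly to inhibition of cyclic AMP, had 33.9 and 27.98 CPM in metestrus and 113 and 92.9 CPM in diestrus (log2 change 1.73 ± 0.18 (SE), edgeR adjusted p = 0.0279). Ptger4 had 36.5 and 39.8 CPM in metestrus and 70.8 and 65.5 CPM in diestrus (log2 change 0.84 ± 0.10 (SE), edgeR adjusted p = 0.0361). The diestrus libraries of all 3 receptors lay close, at most 1.22-fold apart (Ptger3). Hpgds, the haematopoietic prostaglandin D synthase, went apart in the diestrus libraries, with 10.6 and 11.9 CPM in metestrus and 99.1 and 7.06 CPM in diestrus. Other receptors that rose were Ramp1, the partner protein of the calcitonin receptor-like receptor, with 19.4 and 18.7 CPM in metestrus and 130.1 and 71.3 CPM in diestrus (log2 change 2.40 ± 0.27 (SE), edgeR adjusted p = 0.0316), the Wnt receptor Fzd1, with 90.1 and 85.00 CPM in metestrus and 209 and 199 CPM in diestrus (log2 change 1.22 ± 0.11 (SE), edgeR adjusted p = 0.0226), and Il15ra, with 4.87 and 6.76 CPM in metestrus and 20.6 and 18.6 CPM in diestrus (log2 change 1.75 ± 0.23 (SE), edgeR adjusted p = 0.0427). Rgs2, which shortens signalling through G proteins, had 65.4 and 69.3 CPM in metestrus and 568 and 261 CPM in diestrus, and library 1 was the higher (log2 change 2.62 ± 0.37 (SE), edgeR adjusted p = 0.0478).

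Matrix genes went both ways. Adamdec1 (chromosome 14, 68563380 to 68582095, minus strand), a secreted metalloprotease of the ADAM family, had 0.357 and 0.513 CPM in metestrus and 13.1 and 11.3 CPM in diestrus and shared the smallest adjusted p of all genes (log2 change 4.79 ± 0.32 (SE), edgeR adjusted p = 0.0200). Of 23 tested matrix proteases and inhibitors, Mmp2, a gelatinase of the stroma, rose from 379 and 364 CPM to 646 and 741 CPM (log2 change 0.90 ± 0.13 (SE), edgeR adjusted p = 0.0475). Of 18 basement membrane genes, the neighbouring collagen IV genes Col4a5 and Col4a6 rose, the former from 102 and 83.9 CPM to 226 and 243 CPM (log2 change 1.33 ± 0.16 (SE), edgeR adjusted p = 0.0340) and the latter from 42.2 and 39.8 CPM to 192 and 127 CPM (log2 change 1.96 ± 0.25 (SE), edgeR adjusted p = 0.0361). Of the 18 basement membrane genes 4 had both diestrus libraries above metestrus, 2 had both below and 11 were opposed, 7 with library 1 high and 4 with library 2 high. Of all tested genes 24.2% lay above and 24.8% below, and 9.83% and 9.6% were opposed in these directions. Of the 23 proteases and inhibitors 8 lay above and 3 below, and 7 were higher and none lower at an unadjusted p under 0.05 in edgeR. Of 28 genes of the fibrillar matrix Col12a1 rose (log2 change 1.59 ± 0.22 (SE), edgeR adjusted p = 0.0454), and Plod2, a lysyl hydroxylase of collagen, fell by 0.99 ± 0.12 (SE) on the log2 scale (edgeR adjusted p = 0.0361). In 13 of the 28 both diestrus libraries lay below metestrus and in 3 above, with a median log2 change of -0.235. Col6a4, a collagen VI chain outside the list, had 1424 and 1537 CPM in metestrus and 201 and 328 CPM in diestrus. It fell by 2.48 ± 0.27 (SE) on the log2 scale (edgeR adjusted p = 0.0314). Spock2, a proteoglycan, and Pi15, a secreted protease inhibitor, rose with log2 changes of 1.73 and 1.55.

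Among secreted signals, the ligands Gdf6, Nrg1 and Nrg2 fell. Gdf6, a ligand of the BMP family, had 8.44 and 13.6 CPM in metestrus and 0.405 and 0.403 CPM in diestrus, close to the limit of detection in diestrus. It fell by 4.75 ± 0.39 (SE) on the log2 scale (edgeR adjusted p = 0.0226). Nrg1 and Nrg2, ligands of the ErbB receptors, had 35.5 and 26.5 CPM in metestrus and 10.9 and 7.77 CPM in diestrus and 44.2 and 44.7 CPM in metestrus and 7.65 and 11.3 CPM in diestrus. They fell by 1.73 ± 0.24 (SE) and 2.23 ± 0.26 (SE) on the log2 scale (edgeR adjusted p = 0.0479 and 0.0336). Lrig1, a membrane inhibitor of ErbB receptors, fell as well, by 0.97 ± 0.12 (SE) (edgeR adjusted p = 0.0361). P2ry14, a receptor for UDP-sugars, had 127 and 192 CPM in metestrus and 8.73 and 16.4 CPM in diestrus and fell by 3.66 ± 0.39 (SE) (edgeR adjusted p = 0.0303). Hrh1, a histamine receptor, fell from 4.42 and 6.12 CPM to 0.585 and 0.656 CPM (edgeR adjusted p = 0.0361). Of 24 tested growth factor ligands Nrg1 alone passed, and of 26 genes of BMP, activin and TGF-beta signalling Fst alone did.

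Shisa2 (chromosome 14, 59625308 to 59631660, plus strand), which retains Wnt and FGF receptors inside the cell, had 29.95 and 29.5 CPM in metestrus and 4.77 and 4.14 CPM in diestrus. It fell by 2.74 ± 0.17 (SE) on the log2 scale and had, with Adamdec1, the smallest adjusted p (edgeR adjusted p = 0.0200). Alad, an enzyme of haem synthesis, had 172 and 173 CPM in metestrus and 77.8 and 77.3 CPM in diestrus. Its metestrus libraries were the outlying ones of the cycle, since the proestrus and estrus libraries held 77.6 to 85.9 CPM. Slc40a1, the iron exporter ferroportin, fell from 82.8 and 99.6 CPM to 31.6 and 26.4 CPM, from a metestrus level already far under the 532 to 641 CPM of proestrus and estrus. Lpl, lipoprotein lipase, fell from 178 and 158 CPM to 55.1 and 66.1 CPM. Plk2, a polo-like kinase induced by growth signals, had 169 and 279 CPM in metestrus and 22.6 and 38.6 CPM in diestrus and fell by 2.87 ± 0.34 (SE) on the log2 scale (edgeR adjusted p = 0.0340). Dio2, which activates thyroid hormone, had 507 and 752 CPM in metestrus and 144 and 179 CPM in diestrus and fell by 1.96 ± 0.26 (SE) (edgeR adjusted p = 0.0427).

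Dio2 and Plk2 are shown with part of their promoters because both hold TGACGTCA, the full palindrome bound by cyclic AMP response element binding proteins, which 3 genes that fell shared. RefSeq promoters of GRCm38.p6, from 250 bases before to 50 after the start of a gene, matched 39 of the 51 genes that rose, 27 of the 41 that fell and 12375 of the tested genes. TGACGTCA, which reads the same on both strands, lay in 3 of 27 genes that fell (Dio2, Plk2 and Sh3gl2; 11.1%), in 1 of 39 that rose (Heca; 2.56%) and in 3.21% of the tested genes. The core of the progesterone response element, ACANNNTGT on either strand, lay in none of the 39, in 1 of the 27 (P2ry14; 3.7%) and in 5.8% of the tested genes. Both motifs were chosen after several had been looked at, and a match describes letters, not binding. Capitals mark the motif in the windows of 60 bases on the strand of the gene, Dio2 at chr12:90739100-90739159 on the minus strand and Plk2 at chr13:110394956-110395015 on the plus strand.
Dio2: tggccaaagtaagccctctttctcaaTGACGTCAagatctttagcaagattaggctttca
Plk2: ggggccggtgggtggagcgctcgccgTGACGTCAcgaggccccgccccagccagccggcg
The motif starts 95 bases before the start of Dio2 and 62 bases before that of Plk2.

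Epithelial genes were among those that fell. The luminal epithelial markers summed to less in both diestrus libraries, most clearly in library 1, and in library 2 mostly through Cd24a. Of 18 luminal markers, Cd24a, a surface glycoprotein, and Elf3, an epithelial transcription factor, passed. Cd24a had 767 and 731 CPM in metestrus and 295 and 348 CPM in diestrus and fell by 1.22 ± 0.14 (SE) on the log2 scale (edgeR adjusted p = 0.0340). Elf3 had 139 and 94.8 CPM in metestrus and 34.7 and 34.1 CPM in diestrus and fell by 1.76 ± 0.21 (SE) (edgeR adjusted p = 0.0340). In 10 of the 18 both diestrus libraries lay below metestrus and in 2 above, against 24.8% and 24.2% of all tested genes. The median log2 change was -0.394, and the median log2 difference from metestrus was -0.993 in library 1 and -0.174 in library 2. The markers summed to 2554 and 2372 CPM in metestrus and to 1452 and 1947 CPM in diestrus. Without diestrus library 1, 4 markers fell and 2 rose, and without library 2, 10 fell and 1 rose. Gjb2, the gap junction protein connexin 26, had 64.5 and 64.6 CPM in metestrus and 6.16 and 8.07 CPM in diestrus and fell by 3.18 ± 0.35 (SE) (edgeR adjusted p = 0.0314), whereas estrus held 129 and 269 CPM. Sfn, an epithelial 14-3-3 protein, was the one gene of 14 tested in the list of keratinized epithelium that passed, and went from 22.9 and 15.02 CPM to 3.10 and 2.92 CPM (edgeR adjusted p = 0.0226). That list, which would mark vaginal or cervical tissue, summed to 44.2 and 32.4 CPM in metestrus and to 28.7 and 23.9 CPM in diestrus, with 2 of its 20 genes at 0 in all 4 libraries. The part of a shift in cell content in these results was not tested.

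Nt5e, an ectonucleotidase that makes adenosine, was the one stromal marker of 17 that passed, with 9.51 and 8.90 CPM in metestrus and 114 and 60.2 CPM in diestrus (log2 change 3.24 ± 0.39 (SE), edgeR adjusted p = 0.0361). Hoxa11 and Pdgfra, which mark uterine stroma, had both diestrus libraries well above metestrus without passing, Hoxa11 with 76.4 and 90.8 CPM in metestrus and 183 and 184 CPM in diestrus (edgeR adjusted p = 0.0534) and Pdgfra with 212 and 168 CPM in metestrus and 541 and 472 CPM in diestrus (edgeR adjusted p = 0.0688). In 9 of the 17 stromal markers both diestrus libraries lay above metestrus and in 3 below, against 24.2% and 24.8% of all tested genes. The list summed to 5287 and 4919 CPM in metestrus and to 6558 and 5203 CPM in diestrus, and without diestrus library 2, 6 rose and 1 fell. Hoxa11os, the antisense transcript that overlaps Hoxa11, rose from 11.1 and 10.5 CPM to 39.9 and 51.4 CPM (edgeR adjusted p = 0.0361). The libraries were stranded, but the strand setting of the counting is not given in the sources used here, so reads of the sense and antisense genes may have been mixed.

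**Figure D3:**
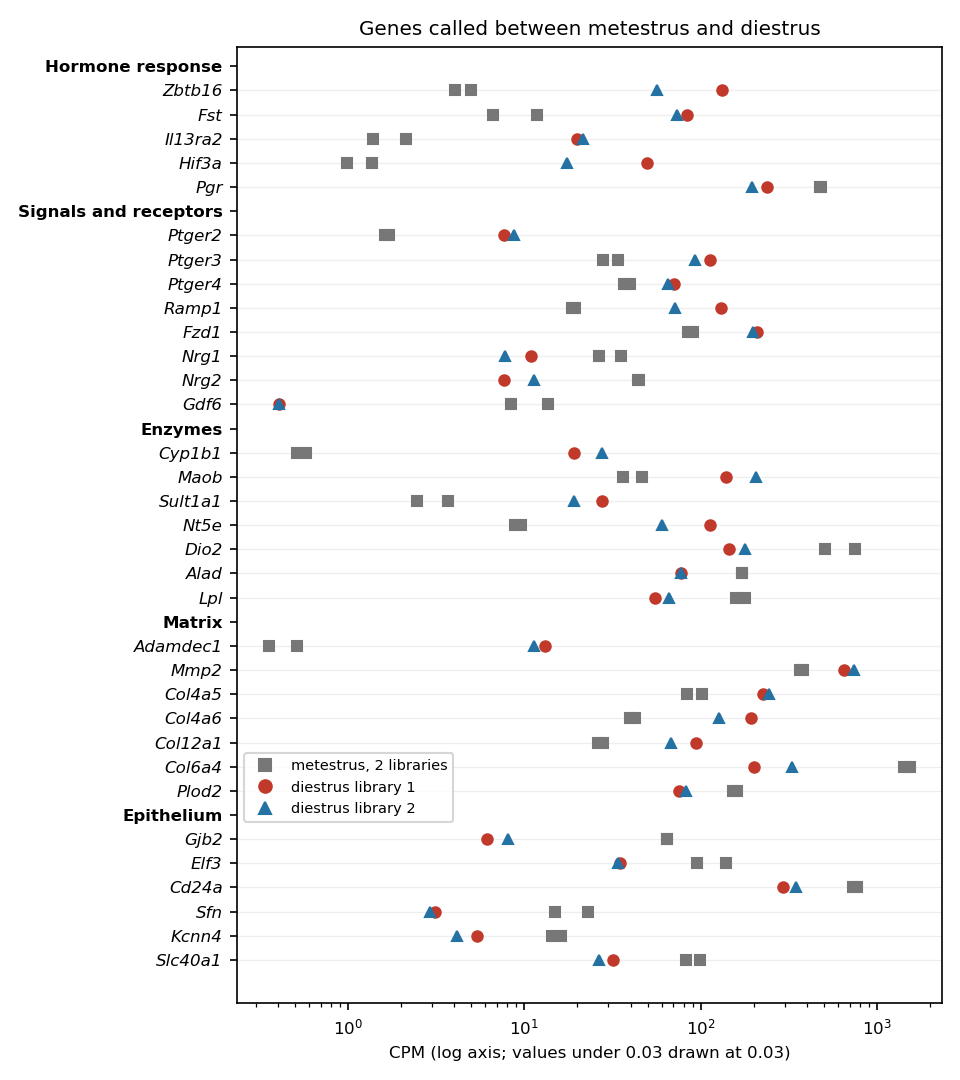
CPM of 33 genes that passed the test, on a log axis, in each metestrus library (gray squares), diestrus library 1 (red circles) and diestrus library 2 (blue triangles). In every gene shown the diestrus and metestrus symbols do not overlap, and Zbtb16 and Hif3a have diestrus library 1 above library 2.

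The genes that changed here tended to differ in the same direction between proestrus and estrus. Those libraries also entered the spread that decided which genes passed. How often their stages did not overlap is therefore not independent of the call, and the shares below are a description. Of the 51 that rose, 39 (76.5%) had both estrus libraries above both proestrus libraries and 5 (9.8%) had both below, whereas 34.2% and 33.3% of all tested genes did. Of the 41 that fell, 31 (75.6%) had both estrus libraries below proestrus and 5 (12.2%) above. Bdh2, a dehydrogenase of ketone and iron metabolism, shows the pattern, at 2.31 and 2.83 CPM in proestrus, 33.4 and 36.1 CPM in estrus, and 3.97 and 4.66 CPM in metestrus and 11.2 and 10.2 CPM in diestrus. Ptpn5, a tyrosine phosphatase, shows it in the other direction, at 143 and 166 CPM in proestrus, 2.05 and 1.96 CPM in estrus, and 190.1 and 128 CPM in metestrus and 22.9 and 10.5 CPM in diestrus. Diestrus was the highest of the stages in 32 of the 51 genes that rose, and the lowest in 29 of the 41 that fell. The share over all tested genes was not counted, and these genes were chosen for a difference of diestrus, so no conclusion is drawn.

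The genes of cell division and growth lay lower in diestrus, by amounts that differed between the libraries. All 26 tested mitosis genes had both diestrus libraries below both metestrus libraries (24 when scaled by total counts alone). The share over all tested genes was 24.8%, and the median log2 change of the mitosis list was -1.25. The list summed to 1054 and 1176 CPM in metestrus, to 182 CPM in diestrus library 1 and to 729 CPM in library 2. Top2a, the topoisomerase of dividing cells, had 159 and 191 CPM in metestrus and 20.02 and 95.1 CPM in diestrus. None of the 26 passed edgeR's test, DESeq2 or limma-voom. Lower at an unadjusted p under 0.05 were 2 of them in edgeR, 13 in DESeq2 and 18 in limma-voom. Without diestrus library 2, 12 fell, and without library 1 edgeR called none (0 lower at an unadjusted p under 0.05). DNA replication genes had a like order of libraries, with 23 of 26 below metestrus in both diestrus libraries and a median of -1.08. None passed edgeR's test or limma-voom, 15 had an unadjusted p under 0.05 by edgeR and DESeq2 called 3 lower. Without diestrus library 2, 16 of them fell.

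All 23 tested genes of ribosome biogenesis also lay below metestrus in both diestrus libraries (21 when scaled by total counts alone), and here the libraries were close. The median log2 change was -0.566, and the list summed to 3434 and 4288 CPM in metestrus and to 2333 and 2928 CPM in diestrus. Bop1, needed for the large ribosomal subunit, had 110.0 and 106 CPM in metestrus and 54.03 and 70.95 CPM in diestrus. None passed edgeR's test or limma-voom, 18 had an unadjusted p under 0.05 by edgeR and DESeq2 called 9 lower, while 7 fell without diestrus library 2. Cholesterol synthesis genes were below metestrus in both diestrus libraries in 16 of 24 cases and above in 1, with a median of -0.621. Those orders were held by 24.8% and 24.2% of all tested genes. Sqle, squalene epoxidase, had 55.3 and 74.99 CPM in metestrus and 23.98 and 28.2 CPM in diestrus. None of the 24 passed edgeR's test or limma-voom, 13 had an unadjusted p under 0.05 by edgeR and DESeq2 called 6 lower.

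Of 22 tested estrogen-responsive genes, 13 lay below metestrus in both diestrus libraries and 2 above, against 24.8% and 24.2% of all tested genes. The median log2 change was -0.885. Another 5 were opposed with library 1 high and 1 with library 2 high. Library 1 was over 2-fold above library 2 in 7 members, and library 2 over 2-fold above library 1 in 4. The list summed to 2534 and 2456 CPM in metestrus, to 3894 CPM in diestrus library 1 and to 1701 CPM in library 2. C3 alone made up most of the sum of library 1. The median log2 difference of the list from metestrus was -0.5 in library 1 and -0.773 in library 2. None passed edgeR's test or limma-voom, 1 higher and 7 lower had an unadjusted p under 0.05 by edgeR, and DESeq2 called 1 higher and 5 lower. Ltf, the secreted iron binder lactoferrin, had 439 and 391 CPM in metestrus and 24.9 and 313 CPM in diestrus, so that library 2 kept most of the metestrus level and library 1 little of it. Sprr2f, a small proline-rich protein of a family of near-identical genes whose reads may be shared, had 295 and 266 CPM in metestrus and 9.09 and 195 CPM in diestrus. C3, Aqp8 and Aqp5, of the same list, were instead higher in library 1 and are described below. Wnt4, a ligand of epithelium and stroma, had 42.9 and 38.3 CPM in metestrus and 10.3 and 16.5 CPM in diestrus, and the libraries differed less (edgeR adjusted p = 0.0562). The calls depended on the diestrus library, since 6 members were lower without library 1, and 4 were higher and 7 lower without library 2.

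Of 19 tested clock genes 1 passed edgeR's test, and 11 were higher and 3 lower at an unadjusted p under 0.05. Over all 18114 tested genes 1717 were higher and 1601 lower at that p. In 12 of the 19 both diestrus libraries lay above metestrus and in 3 below, against 24.2% and 24.8% of all tested genes. The median log2 change was 0.792. Nr1d2, the repressor REV-ERB beta, rose from 29.9 and 24.8 CPM to 51.1 and 48.9 CPM (log2 change 0.87 ± 0.12 (SE), edgeR adjusted p = 0.0452). Per3 and Tef had 8.04 and 8.26 CPM in metestrus and 16.7 and 15.6 CPM in diestrus and 32.6 and 31.7 CPM in metestrus and 70.9 and 54.97 CPM in diestrus and did not pass (edgeR adjusted p = 0.0581 and 0.0676). Per2, named after its values were seen, lay lower in diestrus, with 45.00 and 58.4 CPM in metestrus and 38.6 and 20.4 CPM in diestrus. Without diestrus library 1 the change of Nr1d2 did not pass (edgeR adjusted p = 0.0524), and without library 2, 8 clock genes rose and 1 fell. The labels give no hour of collection, so the stage and the time of day cannot be told apart.

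**Figure D4:**
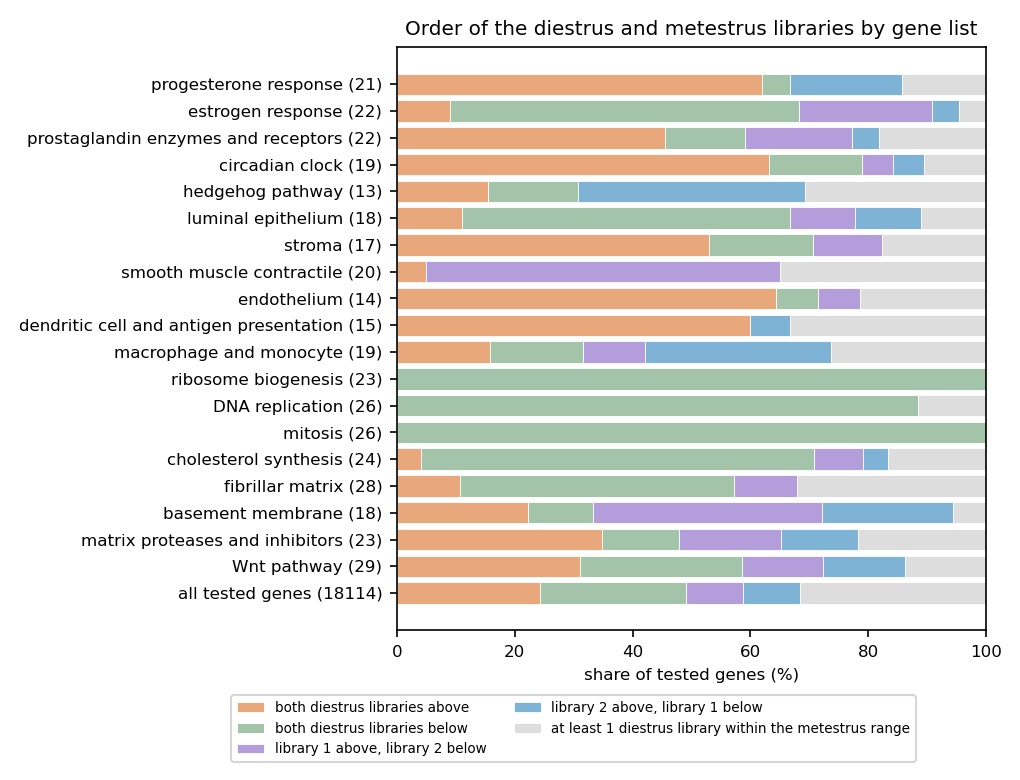
Share of the tested genes of each list (stacked bars, percent) whose diestrus libraries both lay above metestrus, both below, on opposite sides, or at least partly within the metestrus range, with all tested genes for comparison. The mitosis and ribosome biogenesis bars are filled by genes with both diestrus libraries below metestrus (24 of 26 and 21 of 23 when scaled by total counts alone), and opposed genes are most of the smooth muscle bar, 12 of 20.

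The opposed genes made up 9.83% of the tested genes with library 1 above and library 2 below metestrus (1780 genes) and 9.6% the other way (1739 genes). None of them passed edgeR's test of the stages, and 11 and 1 of them had an unadjusted p under 0.05. The difference between the diestrus libraries themselves was not tested, and their values are given as a description. A difference was called strong where 1 diestrus library lay over 2-fold above the higher metestrus library and the other lay under the lower metestrus library by over 2-fold, on log2 CPM with a prior count of 2. Strong differences were found in 34 genes high in library 1 and in 45 high in library 2. Diestrus libraries over 2-fold apart were not confined to opposed genes, since library 1 was over 2-fold above library 2 in 1322 of the tested genes and under it by over 2-fold in 1391.

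Genes high in diestrus library 1 included the water channels Aqp8 and Aqp5 and some immunoglobulin segments. Aqp8 (chromosome 7, 123462291 to 123468004, plus strand), a water channel, had 3.79 and 7.57 CPM in metestrus and 161 and 0.202 CPM in diestrus, and Aqp5, another, had 26.5 and 27.8 CPM in metestrus and 111 and 12.2 CPM in diestrus. In both the metestrus libraries lay between the diestrus libraries. Of 19 tested genes of aquaporins and ion transport, 4 were over 2-fold higher in library 1 and 6 in library 2, and 2 were opposed with library 1 high and 3 with library 2 high. Bhlha15, a transcription factor of secretory cells, had 4.91 and 4.96 CPM in metestrus and 32.9 and 1.26 CPM in diestrus, and Folr1, a folate receptor, had 1.47 and 1.33 CPM in metestrus and 13.8 and 0.403 CPM in diestrus. Krt84, a hard keratin, had 0.179 and 0.299 CPM in metestrus and 11.6 and 0 CPM in diestrus, and Pck1, the rate-limiting enzyme of gluconeogenesis, had 6.52 and 9.50 CPM in metestrus and 44.8 and 2.82 CPM in diestrus. Library 2 was the lowest of the 4 libraries in all of these genes. Of the 34 strong genes, 7 were immunoglobulin segments, and of the 45 high in library 2, 1 was. Their share of all tested genes was not counted. Igkv4-53 had 5.18 and 7.27 CPM in metestrus and 46.5 and 1.16 CPM in diestrus, and reads of such segments can be shared between near-identical copies. The segments Ighv8-8 and Igkv3-5 were instead among the 41 genes that fell, with both diestrus libraries below metestrus. The markers of B and plasma cells, 11 of 13 tested, summed to 3048 and 3273 CPM in metestrus. Diestrus library 1 held 3061 CPM of them and library 2 held 1071 CPM. Both diestrus libraries lay below metestrus in 5 of the 11 and above in 1, against 24.8% and 24.2% of all tested genes. The part of these cells was not tested.

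Other genes differed widely between the diestrus libraries without being opposed by over 2-fold on both sides. Prss28 and Prss29, neighbouring proteases of the uterine glands with like sequences whose reads may be shared, had no count in metestrus, where 3 counts correspond to 0.134 and 0.128 CPM. Diestrus library 1 held 2039 and 5509 CPM of them and library 2 held 0 and 0.0504 CPM. Klk1, a kallikrein, had 0.893 and 1.88 CPM in metestrus and 326 and 0.706 CPM in diestrus, and Mmp7, the epithelial matrilysin, had 0.714 and 0.770 CPM in metestrus and 56.1 and 0.403 CPM in diestrus. C3, the central complement component and an estrogen-induced secretion of the epithelium, had 324 and 307 CPM in metestrus and 2510 and 179 CPM in diestrus. Of the 17 tested gland markers, 6 lay over 2-fold higher in library 1 and 4 in library 2. Their sum went from 269 and 317 CPM in metestrus to 8171 CPM in library 1 and 347 CPM in library 2. Prss28 and Prss29 made up most of the 8171 CPM. Both diestrus libraries lay above metestrus in 4 of the 17 and below in 7, against 24.2% and 24.8% of all tested genes. The median log2 difference of the list from metestrus was -0.226 in library 1 and -0.162 in library 2. Foxa2, the transcription factor of the glands and named after its values were seen, was nearly level, with 15.5 and 16.6 CPM in metestrus and 14.3 and 17.3 CPM in diestrus.

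Smooth muscle genes differed between the diestrus libraries as a group. Library 1 lay above and library 2 below metestrus in 12 of 20, the stages overlapped in 7, and in the other both diestrus libraries lay above. The shares over all tested genes were 9.83%, 31.6% and 24.2% in this order. Des, desmin, had 984 and 676 CPM in metestrus and 2666 and 741 CPM in diestrus, and Actg2, enteric smooth muscle actin, had 870.0 and 643 CPM in metestrus and 2097 and 533 CPM in diestrus. The list summed to 16759 and 13325 CPM in metestrus, to 28211 CPM in diestrus library 1 and to 12275 CPM in library 2, and 14 of its genes were over 2-fold higher in library 1 than in library 2. None passed edgeR, DESeq2 or limma-voom, 2 higher by DESeq2 and none by the other tools had an unadjusted p under 0.05, and 7 were higher without diestrus library 2. The part of the share of muscle in the other differences of library 1 was not tested. Lymphatic and mesothelial markers went the same way in 7 of 10, Msln, a mesothelial surface protein, with 11.6 and 7.31 CPM in metestrus and 25.4 and 2.62 CPM in diestrus.

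Genes high in diestrus library 2 and below metestrus in library 1 included 5 of 13 tested members of the hedgehog pathway. Of the others, 2 lay above metestrus in both diestrus libraries, 2 below and 4 overlapped. The shares over all tested genes were 9.6% opposed in this direction, 24.2% above, 24.8% below and 31.6% overlapping. Ihh (chromosome 1, 74945315 to 74951672, minus strand), the ligand, had 35.7 and 35.4 CPM in metestrus and 8.46 and 92.4 CPM in diestrus. The receptor Ptch1, which is also a target of the pathway, had 149.9 and 185 CPM in metestrus and 98.2 and 279 CPM in diestrus. The transcription factor Gli1, another target, had 156 and 143 CPM in metestrus and 52.3 and 178 CPM in diestrus, and the transducer Smo had 248 and 215 CPM in metestrus and 185 and 253 CPM in diestrus. No member was opposed the other way. Hhip, a membrane inhibitor that binds the ligand, lay below metestrus in both, with 27.01 and 39.6 CPM in metestrus and 1.53 and 20.4 CPM in diestrus. No member passed edgeR's test or limma-voom, 2 higher and 1 lower had an unadjusted p under 0.05 by edgeR, DESeq2 called 1 higher, and without diestrus library 2, 1 was higher and 3 were lower.

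Outside that pathway, Calb1, a calcium-binding protein of the uterine epithelium, had 56.1 and 80.4 CPM in metestrus and 2.11 and 188 CPM in diestrus, and Gcnt3, an enzyme of mucin glycosylation, had 27.5 and 28.1 CPM in metestrus and 0.675 and 59.00 CPM in diestrus. Npl, which breaks down sialic acid, had 8.12 and 9.62 CPM in metestrus and 2.52 and 146 CPM in diestrus, and Fxyd4, a regulator of the sodium pump, had 9.24 and 11.3 CPM in metestrus and 1.35 and 75.7 CPM in diestrus. Library 1 was the lowest of the 4 libraries in each of these. Acod1, which makes itaconate, had 3.97 and 3.51 CPM in metestrus and 0.900 and 27.7 CPM in diestrus, and Lpar3, a lysophosphatidic acid receptor of the luminal epithelium, had 8.62 and 8.30 CPM in metestrus and 1.93 and 21.6 CPM in diestrus. Gstm7, a glutathione transferase whose reads may be shared with close relatives, had 172 and 234 CPM in metestrus and 26.99 and 568 CPM in diestrus. The progesterone-responsive transcription factors Gata2 and Sox17, named after their values were seen, lay on the same sides with smaller differences, Gata2 with 235 and 193 CPM in metestrus and 152 and 354 CPM in diestrus and Sox17 with 80.6 and 89.2 CPM in metestrus and 48.3 and 183 CPM in diestrus. Of the 45 strong genes high in library 2, 22 (48.9%) had both estrus libraries above both proestrus libraries and 4 (8.89%) had both below. Of the 34 high in library 1, 7 (20.6%) had both above and 11 (32.4%) both below, against 34.2% and 33.3% of all tested genes.

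**Figure D5:**
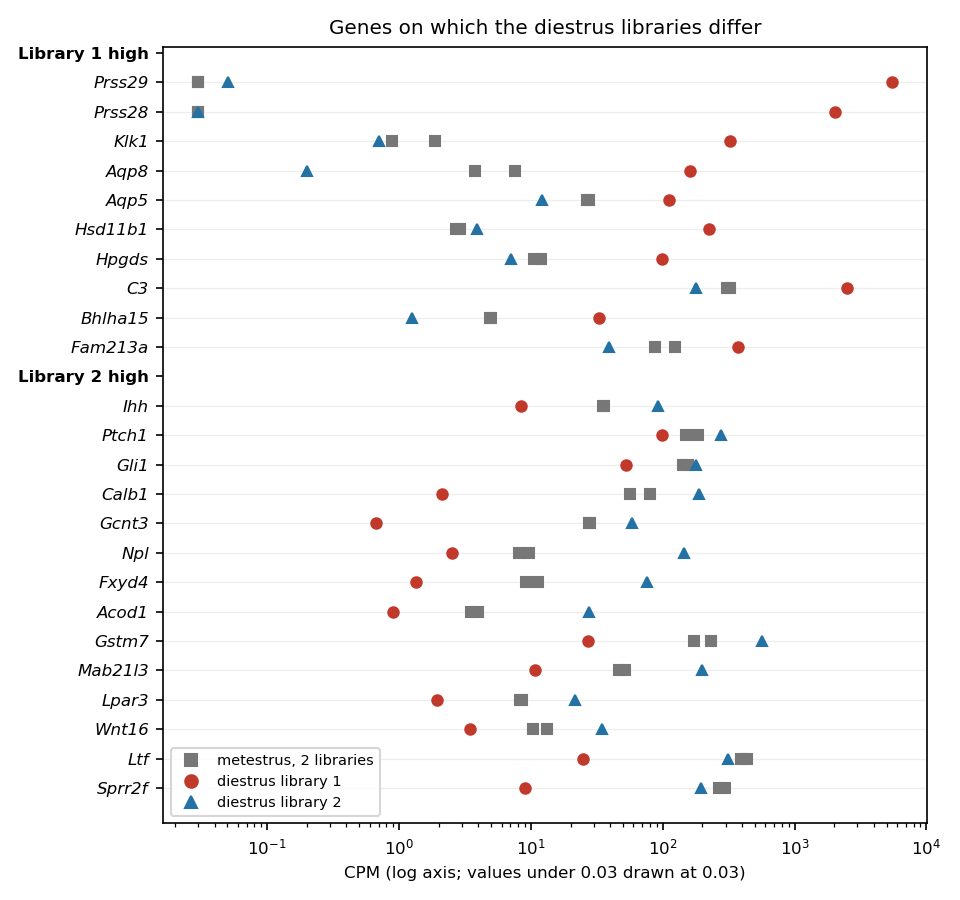
CPM of 24 genes that differ between the diestrus libraries, on a log axis, in each metestrus library (gray squares), diestrus library 1 (red circles) and diestrus library 2 (blue triangles), with values under 0.03 drawn at 0.03. The metestrus squares lie between the diestrus symbols in Aqp8, Aqp5 and Ihh, and near the library 2 symbol in Prss28 and Prss29.

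Of 15 markers of dendritic cells and antigen presentation, 9 had both diestrus libraries above metestrus and none below. Cd74, the invariant chain, had 476 and 432 CPM in metestrus and 654 and 619.8 CPM in diestrus. H2-Eb1, a class II chain named after its values were seen, had 4.51 and 89.8 CPM in metestrus and 128 and 125 CPM in diestrus, so that metestrus library 1 stood apart from the other 3 libraries. No member passed edgeR, DESeq2 or limma-voom, and 2 were higher by limma-voom, none by edgeR or DESeq2, at an unadjusted p under 0.05. Of 14 endothelial markers 9 lay above metestrus in both diestrus libraries and 1 below, and the list summed to 1025 and 1097 CPM in metestrus and to 1467 and 1128 CPM in diestrus. None passed edgeR, DESeq2 or limma-voom, 7 had an unadjusted p under 0.05 by edgeR, and 4 rose without diestrus library 2. Macrophage markers were divided, with 3 of 19 above, 3 below, and 8 opposed, 2 with library 1 high and 6 with library 2 high. Of all tested genes 24.2% lay above and 24.8% below, and 9.83% and 9.6% were opposed in these directions.

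In the FAM3 family, secreted cytokine-like proteins named in the title of the series, no member passed edgeR, DESeq2 or limma-voom, and 2 had an unadjusted p under 0.05 by edgeR, both lower. Fam3d, listed under its older symbol Oit1, had 7.59 and 7.91 CPM in metestrus and 23.8 and 6.71 CPM in diestrus, with library 1 above and library 2 below metestrus. Fam3b had 0.491 and 0.513 CPM in metestrus and 0.0900 and 0.151 CPM in diestrus, and Fam3c had 64.5 and 58.9 CPM in metestrus and 43.8 and 52.8 CPM in diestrus, both below metestrus in both diestrus libraries. Fam3a overlapped between the stages, with 34.9 and 30.2 CPM in metestrus and 54.5 and 33.99 CPM in diestrus. Without diestrus library 2, 2 members rose.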

How the data were processed

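Polyadenylated RNA of whole uterus went into stranded libraries, per the labels' protocols, 2 libraries at each of 4 stages. The deposited values are read counts per gene, made by the authors with STAR, featureCounts and Subread on the mouse build GRCm38 (mm10), per the submitters' processing notes. Their versions, the gene models and whether counting used strand were not given in the sources used here. Values were integers and library totals differed, as for counts without scaling. Stage and replicate number were read from the labels, and the columns of the table were matched to them by the first letter of the stage and the number.

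GENCODE M21 supplied symbols and coordinates for 52058 of 52308 identifiers, and the 250 unmatched ones took up to 0.0107% of a library's counts. The test was that of edgeR 4.0.16 under R 4.3.3 (filterByExpr by stage, TMM, glmQLFit on all 8 libraries with 4 residual and 2.698 prior degrees of freedom, two-sided F test of diestrus minus metestrus, Benjamini-Hochberg adjustment). The biological coefficient of variation was 0.2501. Standard errors were obtained as the absolute log2 change over the root of F, and log2 CPM carried a prior count of 2. The order of the libraries was taken from CPM. The procedure was tested on simulated data with known changes.

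The comparison, the 46 gene lists (848 genes, 786 tested, 5 not found in the table) and the rule for naming genes were chosen with earlier results of these data known. The rule took every called gene, the 15 most opposed genes in each direction with 5 CPM or more, all steroid receptors, hedgehog and FAM3 genes, and up to 4 genes by p and 4 by the ratio of the diestrus libraries from each other list. A few genes taken by it are not reported here. Predicted genes were skipped, 1 in each direction (D630045J12Rik and Gm16485). Alternatives were DESeq2 1.42.0, its size factors in edgeR, limma-voom (limma 3.58.1), other filters, the pair alone, a replicate block and each library left out. Counting intervals and the limit of 3 counts cover counting error only.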

Additional observations from a re-analysis of the deposited data

How the results depend on the processing

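The number of genes called was the part most open to the processing. DESeq2 called 502 genes higher and 490 lower in diestrus, and edgeR without a filter on low counts called 254 and 197, on 31226 genes. With only the libraries of the pair edgeR called 0 in both directions (1145 higher and 1043 lower at an unadjusted p under 0.05). Leaving out 1 library at a time gave 0 to 1052 higher and 0 to 933 lower genes, the lowest without either metestrus library and the highest without diestrus library 2. With the replicate number as a block, 35 genes were higher and 26 lower, 25 and 23 of them shared with the fit without it. The numbers are not known to pair the libraries: the differences between replicates correlated across genes by 0.0751 between metestrus and diestrus, and by -0.0926 to 0.145 over all pairs of stages. DESeq2 size factors in edgeR gave 50 and 42, limma-voom 51 and 34, and a filter at 1 CPM in 2 libraries 55 and 40. Of 90 named genes that were called, none was called under every alternative. All 90 were lost with the pair alone, 43 with the block and 18 by limma-voom. None reversed its direction, but their stages did not overlap, so leaving out a library could hardly reverse one. Under other scalings and filters, genes above metestrus in both diestrus libraries numbered 4047 to 5784, those below 4103 to 5598 and opposed genes 3179 to 4350. The depth of diestrus library 2, 17863546 counts, limits genes near 0.151 CPM, the level of 3 counts.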

Other observations

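Wnt genes not described above were divided between the directions. Of 29 tested members of a Wnt list, 9 had both diestrus libraries above metestrus and 8 below, with a median log2 change of 0.104. These counts were near the shares of all tested genes, 24.2% above and 24.8% below. None passed edgeR's test or limma-voom, and DESeq2 called 4 in each direction. By edgeR 6 in each direction had an unadjusted p under 0.05. Over all 18114 tested genes 1717 higher and 1601 lower had such a p. Wnt7a, an epithelial ligand, had 53.03 and 41.2 CPM in metestrus and 3.19 and 11.2 CPM in diestrus. Wif1, a secreted inhibitor of Wnt ligands, had 42.01 and 27.3 CPM in metestrus and 0.315 and 6.76 CPM in diestrus, and was under 0.2 CPM in the proestrus and estrus libraries. Sfrp2, another secreted inhibitor, had 61.4 and 57.3 CPM in metestrus and 134 and 189.7 CPM in diestrus, and Wnt11 had 1.52 and 1.16 CPM in metestrus and 3.15 and 24.8 CPM in diestrus, with library 2 far the higher.

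Of 20 genes of protein folding in the endoplasmic reticulum, 11 lay below metestrus in both diestrus libraries and none above. Those orders were held by 24.8% and 24.2% of all tested genes. The median log2 change of the 20 genes was -0.309. None passed edgeR's test or limma-voom, 7 were lower at an unadjusted p under 0.05 by edgeR, and DESeq2 called 2 lower. Interferon-induced genes overlapped between the stages in 16 of 24 cases, against 31.6% of all tested genes, with a median log2 change of 0.151.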
